A study of Mus musculus with 15 samples.

Results

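Embryonic germ cell (EGC) lines derived from E11.5 XY embryos were compared with XY embryonic stem cell (ESC) lines, both from mouse. The comparison takes 3 E11.5 XY EGC and 3 XY ESC libraries out of 15, and the 12942 of 34347 genes that reached at least 1 TPM (transcripts per 1000000, a share of all transcripts corrected for length) in at least 2 of these 6 libraries. EGC are pluripotent lines grown out from primordial germ cells, so the libraries are from cultured lines and not from freshly isolated germ cells. The karyotype and the embryonic stage of each library came from the header of the deposited table, which names no strain, allele or agent, and gives no stage for the ESC. The remaining libraries, used where stated, are 3 E12.5 XY EGC, 3 further EGC of E11.5 (2 of them XX and 1 XO) and 3 XX ESC. Per the labels, EGC and ESC share 1 protocol: colonies grew out in 2i-LIF medium, were replated on fibroblast feeders in serum with LIF, reached passage 6, and were sorted for the surface antigen SSEA1. It is not stated whether libraries under 1 header label come from separate lines, so every p-value measures only the spread between these libraries.

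Immediate-early genes are transcribed within minutes of a stimulus, without new protein synthesis, largely through the RAS, RAF, MEK and ERK kinases and the factors SRF and CREB. MAP kinase phosphatases of the DUSP family switch these kinases off, and several are themselves made in response to ERK. In mouse pluripotent cells, ERK signalling promotes exit from the naive state, LIF and STAT3 oppose it, and the 2i inhibitors act on MEK and GSK3. Imprinted genes are expressed from 1 parental copy, marked by DNA methylation that primordial germ cells erase.

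The 6 libraries carried the marks of pluripotent XY cells, except that the Y-linked Kdm5d was near 0. Pou5f1, the OCT4 factor, had 1346, 1295 and 1162 TPM in E11.5 XY EGC, against 1200.2, 1113 and 1304 TPM in XY ESC. Nanog had 502, 496 and 516 TPM in E11.5 XY EGC, against 432, 482 and 445 TPM in XY ESC, and neither gene passed the test. The Y-linked Eif2s3y had 111, 77.5 and 105 TPM in E11.5 XY EGC, against 102, 137 and 109 TPM in XY ESC, with overlapping groups, and Xist, the RNA of X inactivation, stayed between 0.0587 and 0.146 TPM. Over the 6 libraries the Y-linked Ddx3y lay between 20.9 and 32.4 TPM and Uty between 13.9 and 18.5 TPM. Kdm5d, also Y-linked, did not exceed 0.0955 TPM in any of them. Of the germ cell genes, Ddx4, an RNA helicase, had 52.7, 51.6 and 43.9 TPM in E11.5 XY EGC, against 49.6, 44.5 and 36.7 TPM in XY ESC, and Nanos3 was under 1 TPM in all E11.5 XY EGC libraries. Values summed to 1000000 TPM in each library, and read depth is unknown. Between 12498 and 13041 genes reached 1 TPM per library over the whole series. Mitochondrial transcripts took 6.70%, 6.94% and 7.85% of the TPM in E11.5 XY EGC and 5.04%, 5.49% and 4.94% in XY ESC. Libraries that stood apart are taken up again at the end: E11.5 XY EGC 1 in fibroblast genes and XY ESC 3 in the base composition of its transcripts.

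Of the 12942 genes, 1646 (12.7%) were higher and 1859 (14.4%) lower in E11.5 XY EGC (limma, adjusted p under 0.05), with 118 of the rises and 70 of the falls at least 2-fold on the log2(TPM + 1) scale. An unadjusted p under 0.05 was found for 5317 genes. The groups did not overlap for 3492 of the 3505 called genes, so separate groups add little to a call. Genes that did not pass could also have separate groups, as 4 of 9 such immediate-early genes had. The added 1 makes fold changes of genes at about 1 TPM or less too small. Without XY ESC 1 the counts were 946 and 1083, and without E11.5 XY EGC 2 they were 1014 and 1150. Where a library left out is written EGC 1, 2 or 3, it is one of the E11.5 XY libraries. Genes are named below by a fixed rule given with the processing, and members of gene lists named beyond it were picked after their values had been seen. In bulk RNA, fewer cells of a type and less RNA per cell cannot be told apart. Counts of called list members are to be read beside the 12.7% higher and 14.4% lower over all tested genes.

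**Figure D1:**
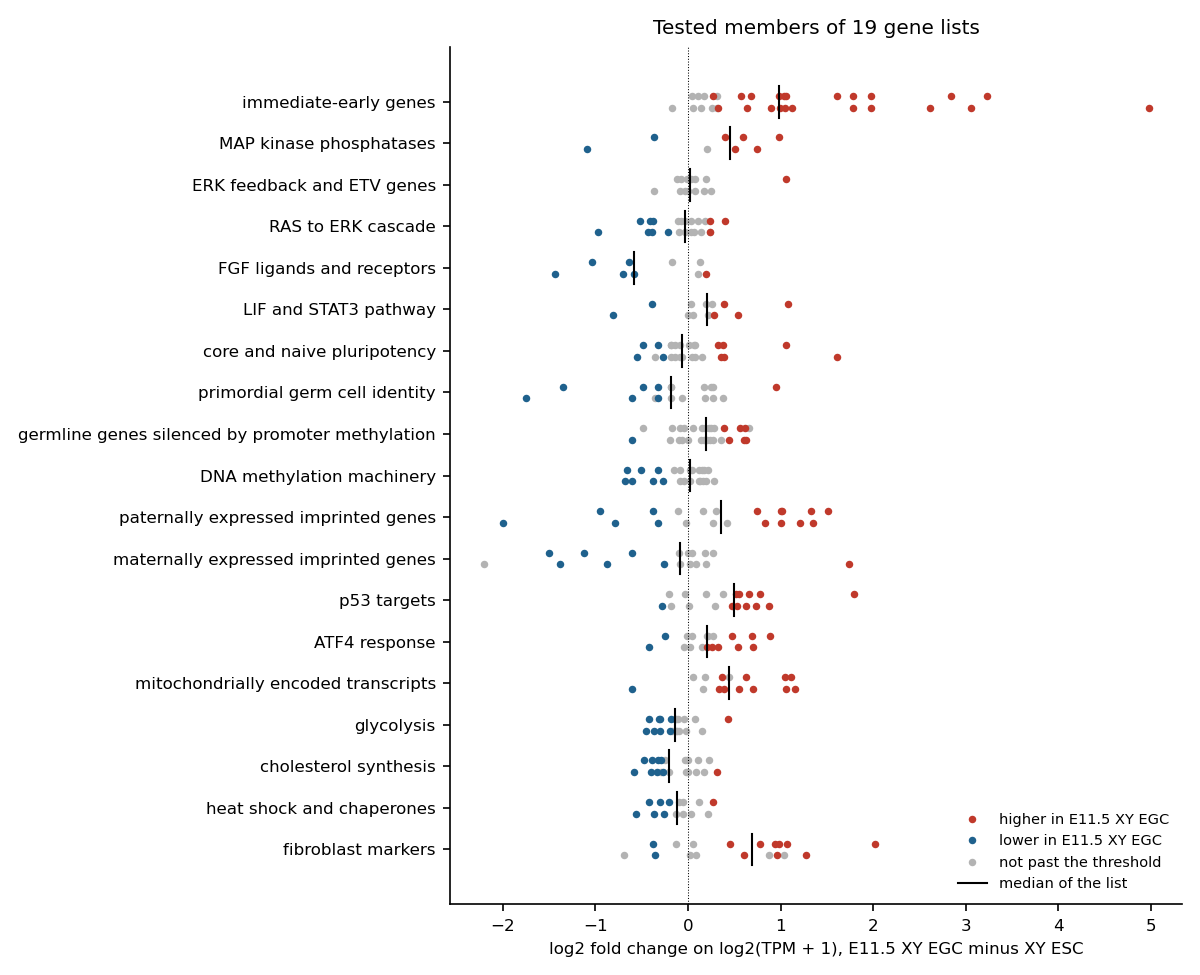
Log2 fold change (horizontal, E11.5 XY EGC minus XY ESC on log2(TPM + 1)) of each tested member of 19 gene lists (rows), with called members coloured by direction and a bar at the list's median. The immediate-early genes reach 4.98 and hold no called fall, while the FGF list lies mostly left of 0.

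Immediate-early genes had the highest median log2 fold change of the 34 gene lists examined, which were chosen with earlier results of these data known. The rank of the immediate-early list is therefore a description and no test. Of the 31 tested members 22 rose, none fell and 9 did not pass, with a median of 0.98, against -0.012 over all tested genes, of which 12.7% were called higher and 14.4% lower. Fosb, a partner of JUN in the AP-1 factor, had 98.8, 114 and 95.4 TPM in E11.5 XY EGC, against 1.99, 2.61 and 2.28 TPM in XY ESC. Fos, the prototype of the family, had 604, 711 and 565 TPM in E11.5 XY EGC, against 73.9, 72.95 and 75.8 TPM in XY ESC. Every E11.5 XY EGC library stood above every XY ESC library for both genes, and the replicates of each group lay close together. The log2 fold changes were 4.98 ± 0.10 for Fosb (limma adjusted p = 1.19e-07) and 3.05 ± 0.08 for Fos (limma adjusted p = 9.27e-07). Fosb and Fos lie on GRCm38 at chr7:19302696-19310051 and chr12:85473890-85477273.

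Zinc finger and other fast-response factors moved the same way. Egr1, a zinc finger factor induced by ERK, had 122, 144 and 161 TPM in E11.5 XY EGC, against 19.2, 28.5 and 20.2 TPM in XY ESC, and its relative Egr2 had 7.17, 7.50 and 9.18 TPM in E11.5 XY EGC, against 0.249, 0.348 and 0.132 TPM in XY ESC. Atf3, a stress-induced CREB family factor, had 24.5, 26.6 and 26.1 TPM in E11.5 XY EGC, against 1.47, 2.67 and 1.55 TPM in XY ESC, and Jun had 42.5, 46.02 and 54.1 TPM in E11.5 XY EGC, against 9.91, 12.6 and 11.4 TPM in XY ESC. None of these 4 genes had overlapping groups, and Egr2, like Fosl1 of the same list, passed the filter on low values through the EGC libraries alone. Their log2 fold changes were 2.61 ± 0.15 for Egr1, 2.85 ± 0.13 for Egr2, 3.23 ± 0.15 for Atf3 and 1.98 ± 0.11 for Jun, with limma adjusted p of 4.71e-05, 1.68e-05, 1.74e-05 and 4.71e-05.

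The rise extended to genes well expressed in XY ESC. Klf4, a naive pluripotency factor that is also an immediate-early gene, had 212, 229 and 229 TPM in E11.5 XY EGC, against 63.8, 74.6 and 79.3 TPM in XY ESC, and Klf6 had 95.4, 90.97 and 98.8 TPM in E11.5 XY EGC, against 26.1, 31.9 and 23.1 TPM in XY ESC. The secreted matricellular genes Cyr61 and Ctgf, targets of SRF and of YAP, rose by 1.98 ± 0.13 and 1.78 ± 0.13 (limma adjusted p = 9.05e-05 and 0.000122). Btg2 rose by 1.12, Klf2 by 1.05, Rhob by 1.04, Junb by 1.04, Arc by 1.00 and Zfp36, which destabilizes the mRNAs of many such genes, by 0.98. Srf, the factor behind many of these promoters, rose less, with 15.7, 14.7 and 14.6 TPM in E11.5 XY EGC, against 9.75, 8.64 and 10.9 TPM in XY ESC (log2 fold change 0.58 ± 0.09, limma adjusted p = 0.00414). The members that did not pass were Ier3, Myc, Ier5, Csrnp1, Klf10, Per1, Tiparp, Fosl2 and Jund, with log2 fold changes of -0.18 to 0.32. Egr3, Egr4, Nr4a2 and Nr4a3 fell under the filter and were not tested. Summed over all 35 members, the level was 2792, 2943 and 2835 TPM in E11.5 XY EGC and 1194, 1270.1 and 1257 TPM in XY ESC. With each library left out, between 20 and 23 members rose.

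**Figure D2:**
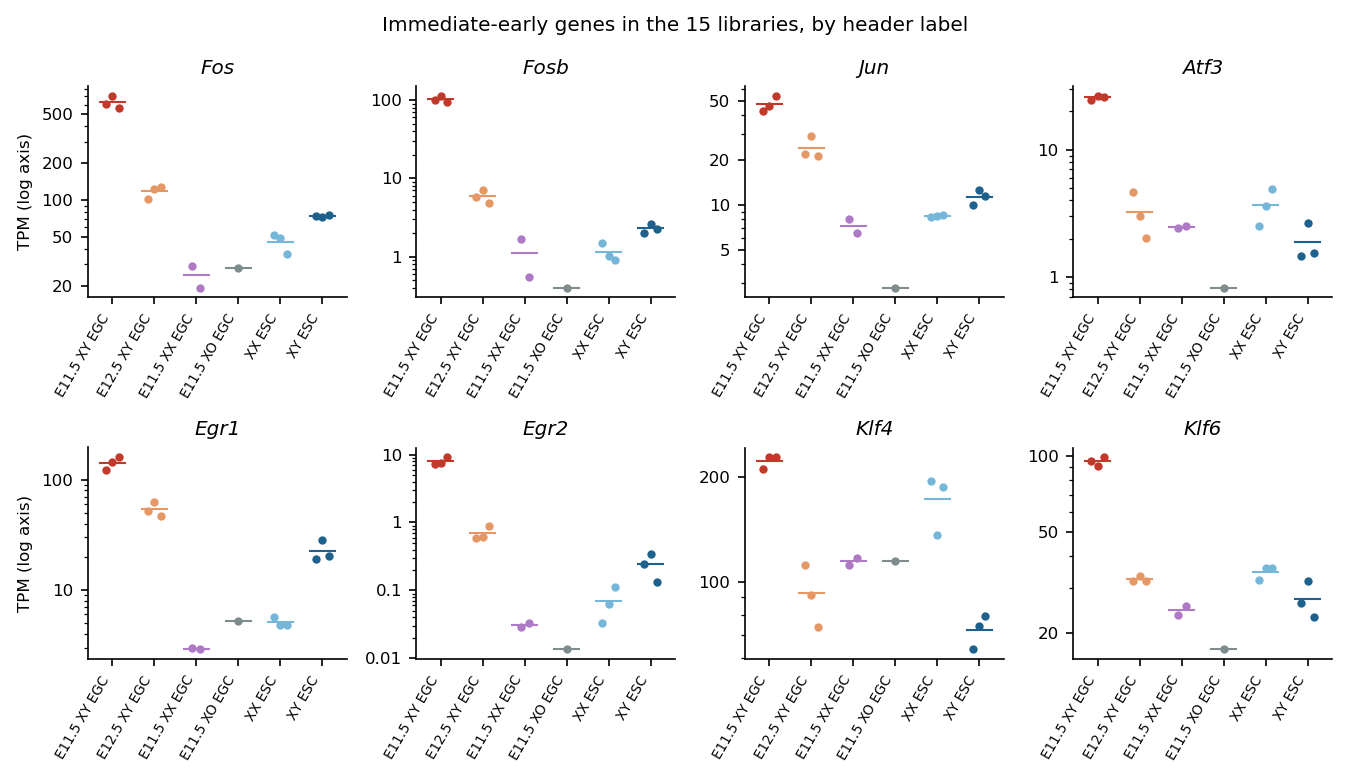
TPM (vertical, log axis) of 8 immediate-early genes in the 15 libraries, grouped by header label; points are libraries and bars are means. The 3 E11.5 XY EGC libraries are the highest in every panel, between 565 and 711 TPM for Fos.

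No other header label reached these levels. Fos averaged 626.5 ± 75.7 TPM in E11.5 XY EGC (SD, n = 3), 117.5 ± 13.5 TPM in E12.5 XY EGC (n = 3), 24.3 ± 7.06 TPM in E11.5 XX EGC (n = 2), 27.9 TPM in the XO library, 45.6 ± 8.37 TPM in XX ESC (n = 3) and 74.2 ± 1.47 TPM in XY ESC (n = 3). The E12.5 XY EGC came nearest for Fos, Fosb, Egr1, Egr2 and Jun. For Klf4 and Atf3 the XX ESC did, averaging 172.8 and 3.67 TPM. A direct contrast of E11.5 with E12.5 XY EGC, in which stage and line cannot be told apart, gave 2.40 log2 units for Fos and 3.92 for Fosb (limma adjusted p = 5.95e-07 and 1.04e-07). In that contrast 39.6% of all tested genes passed, 1587 higher and 3538 lower in E11.5, a split that was 2593 and 2492 with median-ratio scaling. Of the 31 immediate-early genes 20 were higher in E11.5 and 1, Csrnp1, was lower.

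The difference between EGC and ESC was also not the same in XY as in XX libraries, whose karyotype and line cannot be told apart. Taken as (E11.5 XY EGC minus XY ESC) less (E11.5 XX EGC minus XX ESC), it was 3.95 for Fos and 3.25 for Egr1 (limma adjusted p = 9.26e-07 and 2.41e-06). Fosb had the largest value of the family, 5.03, and Klf10, Per1 and Tiparp passed here without passing between E11.5 XY EGC and XY ESC. This interaction passed for 16.6% of all tested genes, 1298 positive and 850 negative, and for 23 of the 31 immediate-early genes, each positive. The counts over all genes were 446 and 252 without E11.5 XX EGC 1, 750.0 and 386 without E11.5 XX EGC 2, 762 and 462 without E11.5 XY EGC 2, 790.0 and 539 without XX ESC 1, 838 and 516 without XX ESC 2 and 783 and 467 without XY ESC 3.

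Tested genes were ranked by Pearson correlation with Fos of log2(TPM + 1) over the 15 libraries. Predicted genes, Y-linked genes and most bare identifiers were left out of this ranking. Fosb came first (r = 0.972). Sertad1, a regulator of CDK4, followed with r = 0.971, as did Atg12, an autophagy conjugation protein, with r = 0.971, and Dll1, a NOTCH ligand, with r = 0.966. The fifth was a transcript listed only by a clone identifier (r = 0.964). The E11.5 XY EGC libraries hold the highest values of all of these, and libraries under 1 label are not independent points. Dll1 had 40.6, 56.6 and 42.2 TPM in E11.5 XY EGC, against 9.88, 7.79 and 9.01 TPM in XY ESC, a log2 fold change of 2.25 ± 0.13 (limma adjusted p = 5.08e-05). Other genes with large rises were Ptgs2, which encodes the inducible cyclooxygenase, with 5.91, 6.73 and 8.83 TPM in E11.5 XY EGC, against 0.232, 0.201 and 0.154 TPM in XY ESC. Osr2, a zinc finger gene, had 6.57, 6.49 and 3.82 TPM in E11.5 XY EGC, against 0.242, 0.101 and 0.134 TPM in XY ESC. Enpp2, which makes lysophosphatidic acid, had 11.45, 14.1 and 14.1 TPM in E11.5 XY EGC, against 2.38, 2.34 and 2.31 TPM in XY ESC. All 3 were picked among genes with separate groups, and Ptgs2 and Osr2 passed the filter through the EGC libraries alone.

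The 120 bases before the start of transcription are shown for the 4 immediate-early genes with the largest rises, since factors that drive this family bind there. They were read 5′ to 3′ on the gene's strand from the RefSeq promoter table (GRCm38.p6), and capitals mark a CArG box, the site of SRF, or a CRE half-site (TGACGT).
Fosb, chr7:19310046-19310165, minus strand: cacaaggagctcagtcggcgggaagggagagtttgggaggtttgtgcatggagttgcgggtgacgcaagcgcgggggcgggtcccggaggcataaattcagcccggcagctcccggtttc
Atf3, chr1:191183334-191183453, minus strand: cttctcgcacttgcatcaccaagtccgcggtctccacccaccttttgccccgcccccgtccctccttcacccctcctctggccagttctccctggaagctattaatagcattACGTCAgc
Fos, chr12:85473770-85473889, plus strand: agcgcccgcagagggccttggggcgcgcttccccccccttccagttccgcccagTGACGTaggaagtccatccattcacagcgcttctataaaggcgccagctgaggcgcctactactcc
Egr2, chr10:67537749-67537868, plus strand: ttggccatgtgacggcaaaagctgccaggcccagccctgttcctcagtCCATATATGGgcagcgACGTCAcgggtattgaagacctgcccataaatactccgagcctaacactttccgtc
In Egr2 the CArG box begins at position -72 and the half-site at -56, in Fos the half-site begins at -66 and in Atf3 at -8, counted from the base before the start as -1. Fosb holds neither in these letters. The table lists 5 starts for Egr2, of which 1 is shown.

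The motifs were searched on both strands of windows from 250 bases before to 50 after the start, which the table gave for 9947 (76.9%) of the tested genes. A CArG box was found in 1.51% of genes called higher, 1.33% of genes called lower and 1.36% of all, and in 3 of 24 immediate-early genes. A full CRE (TGACGTCA) was found, in the same order, in 3.81%, 2.79% and 3.18%, and in 2 of the 24. An AP-1 site (TGANTCA) was found in 5.48%, 4.47% and 4.53%, and in none of the 24. The CRE half-site, which lies within the full CRE and was added after the sequences had been seen, was found in 12.9%, 11% and 11.9%, and in 6 of the 24. These are counts of letters and not of bound sites.

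MAP kinase phosphatases moved in both directions. Dusp9, an X-linked phosphatase with preference for ERK, had 35.8, 32.7 and 30.7 TPM in E11.5 XY EGC, against 71.8, 66.96 and 76.3 TPM in XY ESC. Its EGC values were lower in all 3 libraries, without overlap (log2 fold change -1.09 ± 0.08, limma adjusted p = 0.000122). Dusp6, the cytoplasmic ERK phosphatase that ERK itself induces, had 39.6, 42.2 and 48.1 TPM in E11.5 XY EGC, against 19.99, 24.4 and 20.1 TPM in XY ESC, and Dusp1, a nuclear phosphatase and immediate-early gene, had 138, 142 and 132 TPM in E11.5 XY EGC, against 77.4, 77.7 and 89.4 TPM in XY ESC. Both were higher in every EGC library (log2 fold changes 0.98 ± 0.10 and 0.75 ± 0.07, limma adjusted p = 0.00072 and 0.000489). Dusp4 rose by 0.59, Dusp5 by 0.51 and Dusp16, which acts on JNK and p38, by 0.40, while Dusp7 fell by 0.37. In all, 5 of 8 tested members rose and 2 fell, with a median of 0.46. Over all tested genes 12.7% were called higher and 14.4% lower. The fall of Dusp7 was lost without E11.5 XY EGC 1 or XY ESC 1.

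**Figure D3:**
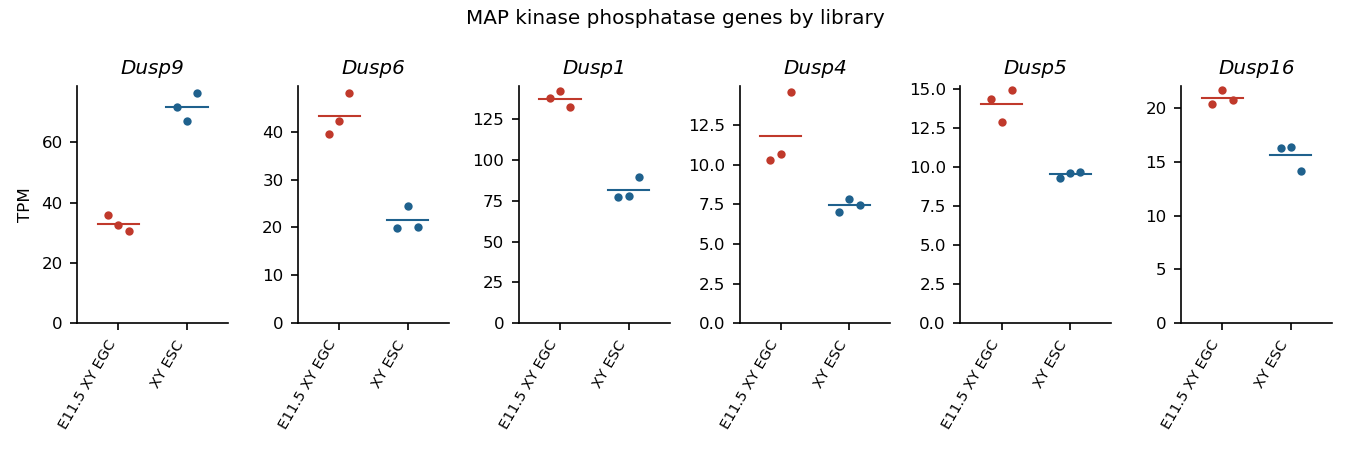
TPM (vertical, from 0) of 6 MAP kinase phosphatase genes in the 3 E11.5 XY EGC (left) and 3 XY ESC libraries (right); points are libraries and bars are means. Dusp9 lies between 30.7 and 35.8 TPM in EGC and between 67.0 and 76.3 TPM in ESC, and the other 5 genes lie higher in EGC.

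The interaction with karyotype was -0.85 for Dusp9 and 0.94 for Dusp6 (limma adjusted p = 0.00168 and 0.00445). The E12.5 XY EGC held 78.2 ± 8.90 TPM of Dusp9 (SD, n = 3), and the E11.5 minus E12.5 difference was -1.21 (limma adjusted p = 1.17e-06). The E11.5 XO library had 33.6 TPM of Dusp9, near the mean of 33.0 TPM in E11.5 XY EGC. Dusp9 averaged 137.8 ± 5.94 TPM in E11.5 XX EGC (SD, n = 2) and 163.3 ± 3.89 TPM in XX ESC (SD, n = 3). Most other ERK feedback genes did not pass. Of 14 tested members of the SPRY, SPRED and ETV list only Phlda1, an ERK-induced gene, rose, with 12.3, 12.9 and 12.1 TPM in E11.5 XY EGC, against 4.69, 5.77 and 6.06 TPM in XY ESC, and none fell. Spry2 had 32.9, 31.8 and 39.4 TPM in E11.5 XY EGC, against 30.6, 37.3 and 30.99 TPM in XY ESC, and Etv5 had 62.5, 63.3 and 78.6 TPM in E11.5 XY EGC, against 69.6, 74.7 and 71.7 TPM in XY ESC, both with overlapping groups.

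Within the cascade from RAS to ERK, 3 of 22 members rose, near the 12.7% over all tested genes, and 7 fell, against 14.4%. Eras, an X-linked RAS gene of mouse ESC that is active without a stimulus, had 23.8, 22.9 and 23.8 TPM in E11.5 XY EGC, against 45.1, 48.8 and 47.1 TPM in XY ESC, with no overlap (log2 fold change -0.97 ± 0.06, limma adjusted p = 7.97e-05). Rasa1, which turns RAS off, fell by 0.52, and the kinase genes Mapk3, which encodes ERK1, and Map2k2, which encodes MEK2, fell by 0.38 and 0.41. The call of Mapk3 was lost without E11.5 XY EGC 2. Ptpn11, the phosphatase SHP2 that passes the signal from receptors to RAS, rose by 0.41. The count of rises was 1 without EGC 1, EGC 2 or any 1 of the XY ESC libraries. Of 9 tested FGF ligands and receptors 5 fell and 1 rose. Fgf15 had 6.07, 5.51 and 5.13 TPM in E11.5 XY EGC, against 13.2, 12.98 and 11.3 TPM in XY ESC, and Fgf8 fell by 1.43. Fgf8 and Fgfr3, 2 of the falling genes, passed the filter on low values through the ESC libraries, with fewer than 2 EGC libraries at 1 TPM. Fgf4, the FGF that ESC secrete, had 184, 200.5 and 185 TPM in E11.5 XY EGC, against 169.7, 159 and 169.9 TPM in XY ESC, a small rise of 0.19 that was lost without any 1 of the 6 libraries.

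In the LIF pathway more genes rose than fell. Lif itself had 7.48, 7.05 and 7.91 TPM in E11.5 XY EGC, against 3.24, 3.01 and 2.79 TPM in XY ESC (log2 fold change 1.08 ± 0.09, limma adjusted p = 0.000264), and Jak2 and Stat3, the kinase and the factor through which LIF acts, rose by 0.54 and 0.39. Of 12 members 4 rose and 2 fell, namely Bcl3 and Pim1, where 12.7% of all tested genes were called higher and 14.4% lower. The fall of Pim1 was lost without EGC 1, EGC 2 or XY ESC 1.

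Imprinted genes changed in both directions. Of 20 tested paternally expressed genes 9 rose and 5 fell (median 0.36), and of 17 maternally expressed genes 1 rose and 6 fell (median -0.08). The shares over all tested genes were 12.7% higher and 14.4% lower. The maternally expressed rises numbered 3 with GC content and length regressed out. Meg3, a maternally expressed non-coding RNA of the Dlk1 domain on chromosome 12, had 625, 756 and 615 TPM in E11.5 XY EGC, against 199, 182 and 214 TPM in XY ESC. Snrpn, a paternally expressed splicing gene of the Prader-Willi region on chromosome 7, had 153, 156 and 139 TPM in E11.5 XY EGC, against 74.3, 74.2 and 72.1 TPM in XY ESC. Neither gene had overlapping groups (log2 fold changes 1.74 ± 0.09 and 1.01 ± 0.06, limma adjusted p = 3.95e-05 and 6.22e-05).

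Sgce and Impact, paternally expressed like Snrpn, had the largest rises of that list beside Snurf, which overlaps Snrpn so that reads of the 2 genes may be shared. Sgce, a membrane protein of the sarcoglycan family, had 29.6, 38.5 and 37.9 TPM in E11.5 XY EGC, against 11.2, 12.7 and 11.2 TPM in XY ESC. Impact, a translational regulator, had 168, 179 and 185 TPM in E11.5 XY EGC, against 75.6, 71.96 and 59.7 TPM in XY ESC. Neither gene had overlapping groups (log2 fold changes 1.51 ± 0.11 and 1.35 ± 0.09, limma adjusted p = 0.000123 and 9.05e-05). Dio3, Dlk1, Zrsr1, Plagl1 and Mest also rose, by 1.21, 1.02, 1.01, 0.83 and 0.74. Dio3 passed the filter through the EGC libraries alone, and the rise of Plagl1 was lost without EGC 1, EGC 3, XY ESC 1 or XY ESC 3.

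The falling genes included several of the imprinted cluster at the distal end of chromosome 7. Igf2, the paternally expressed growth factor, had 4.68, 2.16 and 2.74 TPM in E11.5 XY EGC, against 11.9, 19.4 and 15.1 TPM in XY ESC, and H19, the maternally expressed RNA beside it, had 30.3, 37.1 and 25.2 TPM in E11.5 XY EGC, against 83.1, 86.99 and 94.6 TPM in XY ESC. Phlda2, a maternally expressed brake on placental growth, had 32.4, 28.04 and 31.4 TPM in E11.5 XY EGC, against 78.6, 72.8 and 93.3 TPM in XY ESC. All 3 genes were lower in every EGC library (log2 fold changes -1.99 ± 0.23, -1.50 ± 0.13 and -1.38 ± 0.10, limma adjusted p = 0.00108, 0.000253 and 0.000122). Cdkn1c, which encodes a maternally expressed inhibitor of cyclin-dependent kinases, fell by 1.12 and Slc22a18 by 0.61. Outside this cluster, H13 on chromosome 2 fell by 0.87 and the paternally expressed Sfmbt2 by 0.95. The count of falling paternally expressed genes was 3 without E11.5 XY EGC 1 or XY ESC 3.

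Grb10, an adaptor that restrains insulin signalling, divided the EGC libraries. It had 8.36, 7.13 and 97.3 TPM in E11.5 XY EGC, against 94.6, 87.2 and 86.4 TPM in XY ESC, so that E11.5 XY EGC 3 lay at the ESC level and the other 2 far under it, and the difference did not pass (log2 fold change -2.21 ± 0.80, limma adjusted p = 0.0727). In the E12.5 XY EGC it averaged 4.19 ± 0.163 TPM (SD, n = 3). The E12.5 XY EGC, whose stage and line cannot be told apart, also differed for other imprinted genes. H19 averaged 396 ± 31.4 TPM there (SD, n = 3), and the E11.5 minus E12.5 difference was -3.65, while Phlda2 averaged 14.1 ± 0.804 TPM, with a difference of 1.07 (limma adjusted p = 6.11e-05 and 4.39e-05). The interaction with karyotype was -0.20 for Meg3 and did not pass (limma adjusted p = 0.35). It was 1.25 for Impact and -1.52 for Phlda2 (limma adjusted p = 0.00109 and 0.000247).

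**Figure D4:**
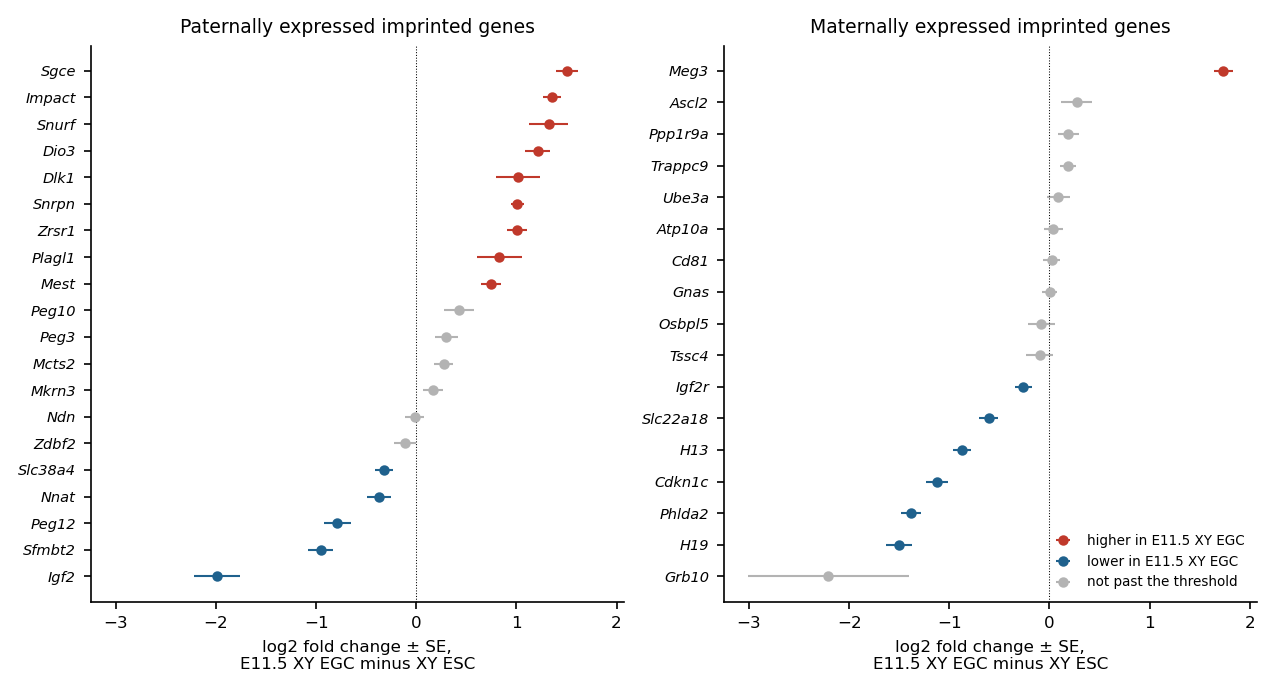
Log2 fold change with its standard error (horizontal, E11.5 XY EGC minus XY ESC) of 20 paternally (left) and 17 maternally expressed imprinted genes (right). Meg3 is the only called rise among the maternally expressed genes, and the wide bar of Grb10 reflects 1 library at the ESC level.

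The core pluripotency genes Pou5f1 and Nanog, given above, did not pass. Of 25 tested core and naive genes 6 rose, 4 fell and 15 did not pass, where 12.7% of all tested genes were called higher and 14.4% lower, and the rises included Klf4 and Klf2, which were also counted above. Klf5, Tbx3, Fbxo15 and Dppa5a rose by 0.33, 0.36, 0.38 and 0.38. Prdm14, a repressor that upholds the naive state and germ cell fate, had 21.9, 19.8 and 18.7 TPM in E11.5 XY EGC, against 27.7, 29.9 and 28.2 TPM in XY ESC, and it fell with Gbx2, Tdgf1 and Lin28a. The call of Lin28a was lost without any 1 library, and those of Klf5 and Tbx3 without E11.5 XY EGC 2 or XY ESC 1. Klf5 also lost its call in the fit of all 15 libraries, Fbxo15 with GC content and length regressed out, Gbx2 under both of these, and Dppa5a with quantile scaling or no filter. Sox2, Esrrb and Zfp42 had log2 fold changes of 0.01, 0.04 and 0.06, none past the threshold. Of 14 formative genes 4 fell, with Dnmt3a and Dnmt3b among them.

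Germ cell genes did not rise as a group. Of 18 tested genes of primordial germ cell identity 1 rose and 6 fell, against 12.7% and 14.4% of all tested genes. Prdm1, the BLIMP1 factor that founds the germ line, had 17.9, 20.7 and 18.2 TPM in E11.5 XY EGC, against 9.42, 9.56 and 8.92 TPM in XY ESC, without overlap (log2 fold change 0.95 ± 0.08, limma adjusted p = 0.000273). The X-linked homeobox genes Rhox6 and Rhox9 fell. Rhox6 had 3.91, 4.64 and 5.31 TPM in E11.5 XY EGC, against 15.5, 17.5 and 20.7 TPM in XY ESC (log2 fold change -1.75 ± 0.13, limma adjusted p = 0.000122), and Rhox9 fell by 1.35. Rhox genes are a multi-copy family whose reads can be shared. Kit and Dazl, both used by germ cells, did not pass, and Nanos3, 1 of the falls, passed the filter through the ESC libraries alone. Without E11.5 XY EGC 2 the falls numbered 3. Without E11.5 XY EGC 3, XY ESC 2 or XY ESC 3 the rises numbered 2.

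The de novo DNA methyltransferase genes were lower in E11.5 XY EGC than in XY ESC, which did not hold for all EGC. Dnmt3a had 15.1, 17.9 and 17.3 TPM in E11.5 XY EGC, against 28.2, 25.3 and 28.6 TPM in XY ESC, and Dnmt3b had 13.8, 14.6 and 15.7 TPM in E11.5 XY EGC, against 22.5, 25.1 and 23.7 TPM in XY ESC, with separate groups for both. Their log2 fold changes were -0.68 ± 0.09 and -0.66 ± 0.08 (limma adjusted p = 0.00157 and 0.00121). The maintenance enzyme Dnmt1 and the demethylation enzyme Tet1 fell by 0.33 and 0.60, and Mbd3, Ehmt2 and Trim28 by 0.50, 0.38 and 0.27. The call of Trim28 was lost without E11.5 XY EGC 2, in the fit of all 15 libraries and with GC content and length regressed out, and that of Ehmt2 without E11.5 XY EGC 2 or XY ESC 1. In all, 7 of 23 genes of this machinery fell and none rose, while 1 rose without E11.5 XY EGC 1. Over all tested genes 14.4% were called lower and 12.7% higher. Dnmt3l, the cofactor of both de novo enzymes, had 167, 173 and 151 TPM in E11.5 XY EGC, against 164, 138 and 151 TPM in XY ESC, and Uhrf1, which recruits Dnmt1, had 167, 174 and 171 TPM in E11.5 XY EGC, against 169, 159 and 176 TPM in XY ESC, both overlapping. Of 28 tested germline genes that promoter methylation silences, 6 rose and 1 fell (median 0.20). Tex19.1, a suppressor of retrotransposons, had 59.8, 55.2 and 49.9 TPM in E11.5 XY EGC, against 37.4, 34.7 and 35.2 TPM in XY ESC, and Stag3, a meiotic cohesin, had 94.9, 105 and 119.5 TPM in E11.5 XY EGC, against 83.9, 80.7 and 68.4 TPM in XY ESC. Tuba3a was the fall, which was lost without XY ESC 1 or XY ESC 3, and 2 members fell without E11.5 XY EGC 2.

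Single genes of developmental signalling changed. Id2, an inhibitor of differentiation factors and a BMP target, had 49.6, 55.98 and 52.9 TPM in E11.5 XY EGC, against 15.03, 16.99 and 12.9 TPM in XY ESC (log2 fold change 1.76 ± 0.10, limma adjusted p = 4.71e-05). Id3 and Nodal rose by 0.91 and 0.56, while Bmp4, Lefty2, Smad7 and Smad6 fell, by 0.92, 0.68, 0.44 and 0.36. These make 5 rises and 4 falls of 14 NODAL and BMP genes, with 2 falls without XY ESC 3, where Lefty2 and Smad6 lost their call. Smad6 also lost it without EGC 1, EGC 2, EGC 3 or XY ESC 1. Of 16 NOTCH genes 3 rose and 2 fell, counts near the 12.7% higher and 14.4% lower over all tested genes: Dll1 (above), Jag1 and Hes6 rose, and the receptor genes Notch4 and Notch2 fell by 1.18 and 0.61. Of 11 WNT targets 5 fell and none rose, among them Tcf7l1, a repressor of WNT target genes, at -0.52. Cdx1 and Notum, 2 of these, passed the filter through the ESC libraries, and Msx1 of the BMP genes through the EGC libraries alone. The call of Notum was lost without EGC 2, EGC 3, XY ESC 2 or XY ESC 3, and that of Msx1 without any 1 library but XY ESC 3. The count of falling WNT targets was 3 without EGC 2, EGC 3, XY ESC 2 or XY ESC 3, and 1 member rose without E11.5 XY EGC 1.

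Many genes of stress responses rose. Of 18 p53 targets 10 rose and 1 fell (median 0.50), against 12.7% higher and 14.4% lower over all tested genes. Plk2, a kinase that is also induced by serum, had 93.4, 115 and 82.1 TPM in E11.5 XY EGC, against 29.3, 30.2 and 22.3 TPM in XY ESC, and Mdm2, which degrades p53, had 213, 238 and 195 TPM in E11.5 XY EGC, against 134, 128 and 113 TPM in XY ESC. Groups did not overlap for either (log2 fold changes 1.79 ± 0.15 and 0.78 ± 0.09, limma adjusted p = 0.000205 and 0.00112). Fas, 1 of the rises, passed the filter through the EGC libraries alone. Cdkn1a, the cell cycle inhibitor p21, rose by 0.48, and Pmaip1, which promotes apoptosis, by 0.73. Sesn1 was the fall, which remained only without E11.5 XY EGC 1 among the 6 fits that leave out a library. Of 18 genes of the ATF4 response 8 rose and 2 fell. Atf4, the factor translated under amino acid shortage, had 389, 358 and 357 TPM in E11.5 XY EGC, against 218, 224 and 237 TPM in XY ESC (log2 fold change 0.70 ± 0.06, limma adjusted p = 0.000273), and its target Cth, a cysteine-making enzyme, rose by 0.69. The rises numbered 5 without E11.5 XY EGC 1 and 4 without XY ESC 1 or in the fit of all 15 libraries, and 1 of the falls was lost without EGC 2, EGC 3, XY ESC 1 or XY ESC 3. Slc38a2, an amino acid transporter, had 142, 149 and 161 TPM in E11.5 XY EGC, against 56.4, 62.5 and 56.4 TPM in XY ESC, with an interaction with karyotype of 1.39 (limma adjusted p = 2.78e-05).

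Mitochondrially encoded transcripts rose for 10 of 15 genes and fell for 1, the ribosomal RNA gene mt-Rnr2 (median 0.44), whose fall was lost in the fit of all 15 libraries. The shares over all tested genes were 12.7% higher and 14.4% lower. The complex I genes mt-Nd4, mt-Nd3 and mt-Nd1 rose by 1.16, 1.11 and 1.05 and mt-Cytb of complex III by 1.06. With these transcripts left out of the total, 1909 genes were higher and 1592 lower, and 22 immediate-early genes rose.

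Among genes of glycolysis and of cholesterol synthesis more fell than rose, and most did not pass. Of 20 glycolysis genes 8 fell and 1 rose (median -0.14), and Slc2a1, the glucose transporter GLUT1, had 506, 506 and 506 TPM in E11.5 XY EGC, against 677, 669 and 732 TPM in XY ESC. The falls numbered 5 without EGC 2 or EGC 3, and the rise, Eno3, was lost without EGC 1, EGC 3, XY ESC 1 or XY ESC 2. Of 21 cholesterol genes 8 fell and 1 rose (median -0.20). Mvd, an enzyme of the mevalonate pathway, had 23.8, 19.09 and 19.3 TPM in E11.5 XY EGC, against 30.3, 30.6 and 33.1 TPM in XY ESC. The falls numbered 5 without E11.5 XY EGC 2 or XY ESC 3, 4 without E11.5 XY EGC 3 and 3 without XY ESC 1, and the rises numbered 2 without XY ESC 2. Cenpf, a kinetochore protein, had 24.4, 24.5 and 26.01 TPM in E11.5 XY EGC, against 49.1, 49.2 and 54.6 TPM in XY ESC, and it was the largest fall among 17 mitosis genes, of which 4 rose and 3 fell. Of all tested genes, 12.7% were called higher and 14.4% lower. The mitosis rises numbered 2 without EGC 1, EGC 2 or XY ESC 3, and 1 without E11.5 XY EGC 3 or XY ESC 1.

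Chaperone genes, which HSF1 controls, were lower in part, with 6 of 14 falling and 1 rising, against 14.4% and 12.7% of all tested genes. Hspa8, the constitutive HSP70 chaperone, had 1468, 1384 and 1492 TPM in E11.5 XY EGC, against 2002, 2250.1 and 2158 TPM in XY ESC, without overlap. The falls numbered 3 without E11.5 XY EGC 1 and 2 without EGC 2, EGC 3 or XY ESC 1, and the rise, Dnajb1, was lost in every fit that left out a library but the one without E11.5 XY EGC 3.

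The 12 largest called falls were taken at 5 TPM or more without overlap, leaving out predicted genes, Y-linked genes and most bare identifiers. They included 6 whose reads can be shared with near-identical copies, namely U1, Eif4a-ps4 and the histone genes Hist1h2aj, Hist1h2ao, Hist1h2af and Hist1h2ap. Their values are uncertain. U1, a small nuclear RNA without a poly(A) tail, stood at 0 in each E11.5 XY EGC library, against 52.2, 27.2 and 40.1 TPM in XY ESC. The others, beside Igf2 and Rhox6, were the nuclear RNA Neat1, the interferon-induced GTPase gene Gbp2, and the factors Stra8 and Tcf15. Stra8, a retinoic acid response gene that starts meiosis, had 9.25, 8.61 and 6.26 TPM in E11.5 XY EGC, against 24.99, 30.3 and 24.4 TPM in XY ESC (log2 fold change -1.62 ± 0.14, limma adjusted p = 0.000273). Neat1, which builds paraspeckles, had 23.96, 28.5 and 24.1 TPM in E11.5 XY EGC, against 51.02, 125 and 119 TPM in XY ESC, with XY ESC 1 well below the other ESC libraries. Tcf15, which primes ESC for differentiation, had 6.25, 6.83 and 7.64 TPM in E11.5 XY EGC, against 22.6, 17.9 and 28.9 TPM in XY ESC, and Gbp2 had 3.59, 3.36 and 6.70 TPM in E11.5 XY EGC, against 15.2, 20.9 and 14.4 TPM in XY ESC. These 4 genes were picked among genes without overlap, and the calls of Neat1 and U1 were lost in the fit of all 15 libraries.

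Markers of the fibroblast feeders were read beside these results. Of 18 tested fibroblast markers 9 rose and 2 fell, a count that was 4 and 0 without XY ESC 1, 3 and 2 without XY ESC 3, and 6 and 0 without XY ESC 2. The rises numbered 2 with no filter and 1 with the stricter filter of 5 TPM in at least 3 libraries. A falling marker, 1 of the pair, was left without EGC 2 or EGC 3. Of the 9 rises, Col3a1, Col5a2, Col6a1 and Postn passed the filter through the EGC libraries alone, and Thy1 had 1 XY ESC library at 1 TPM or more. Of these 5 genes, only Col5a2 kept its call whichever of the 6 libraries was left out. E11.5 XY EGC 1 stood apart. The call of Col3a1 was lost without any 1 XY ESC library. Col3a1, a fibrillar collagen, had 15.1, 1.21 and 2.14 TPM in E11.5 XY EGC, against 0.179, 0.221 and 0.173 TPM in XY ESC, and Acta2, smooth muscle actin, had 108, 4.36 and 8.31 TPM in E11.5 XY EGC, against 15.7, 23.2 and 16.7 TPM in XY ESC. Dcn, a matrix proteoglycan, had 6.48, 0.130 and 0.0248 TPM in E11.5 XY EGC and 0.0867, 0.146 and 0.0256 TPM in XY ESC. The sum over all 23 markers was 523, 328 and 363 TPM in E11.5 XY EGC, against 409, 413 and 399.9 TPM in XY ESC (exact permutation p = 1, 2-sided, smallest possible 0.1). Their mean log2(TPM + 1) was 2.98, 2.01 and 2.16 in E11.5 XY EGC, against 1.81, 1.92 and 1.83 in XY ESC (exact permutation p = 0.1). Of the defining markers, Lum was at or near 0 in all libraries but E11.5 XY EGC 1. Without that library 1191 genes were higher and 1407 lower, and 20 immediate-early genes rose. Of the tested markers of other lineages, 1 of 8 for primitive endoderm, 1 of 3 for mesoderm and 1 of 5 for neuroectoderm fell. Of 6 for trophoblast 1 rose and 2 fell, where 12.7% of all tested genes were called higher and 14.4% lower.

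E11.5 XY EGC 1 also differed in the level of chromosome 8. The median of its genes, relative to the mean of the 6 libraries and to other autosomes, was 0.0985 log2 units in this library and between -0.0425 and 0.0251 in the other 5. The median log2 fold change of chromosome 8 was -0.0017 with and -0.0441 without it. Over all chromosomes these medians ran from -0.0696 on chromosome 7 to 0.0546 on chromosome 1, and that of the X chromosome was 0.0462, or 0.0004 without XY ESC 3.

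Calls depended on the base composition of the transcript. Of the 11642 tested genes with a known GC content (90.0%), split into 5 equal bins by that content, the lowest bin had 18.95% of its genes called higher and 4.16% called lower, and the highest bin 5.03% and 26.3%. Spearman's rho between GC content and log2 fold change was -0.33 across genes, which are not independent replicates. XY ESC 3 departed most from the mean of the 6 libraries, by -0.19 log2 units in the lowest and 0.17 in the highest bin. With GC content and length regressed out of each library, a setting chosen after seeing the data, 1831 genes were higher and 2084 lower, 2970 of them among the 3505. In that setting 24 immediate-early genes rose. The cause of the relation to base composition was not tested.

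**Figure D5:**
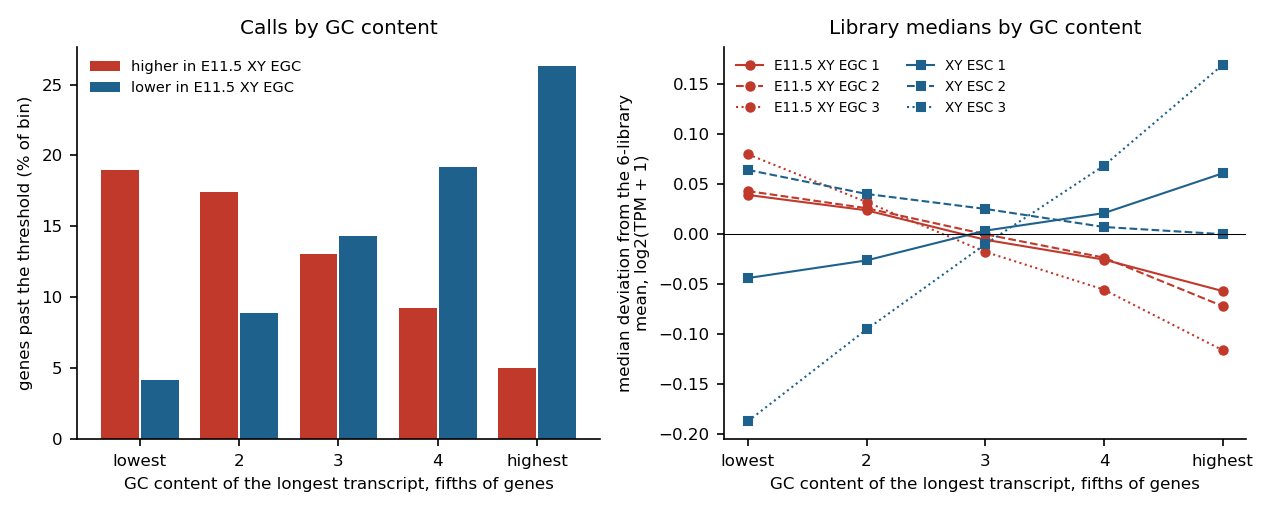
Left, percent of genes called higher and lower in E11.5 XY EGC (vertical) in 5 equal bins of genes by transcript GC content (horizontal). Right, median deviation of each of the 6 libraries from their mean (log2 units) in the same bins, where XY ESC 3 spans -0.19 to 0.17.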

How the data were processed

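RNA of SSEA1-sorted cells was sequenced as paired-end, poly(A)-selected libraries, per the labels' protocols. The authors deposited 1 table of TPM per gene (34372 entries, 15 libraries), per the file headers. How TPM were computed is not given in the sources used here. The submitters' processing notes name the mm10 build and, with no role or order, edgeR 3.8.6, HTSeq 0.6.0, STAR 2.3.0, Picard 1.100 and SAMtools 0.1.18.0. TPM hold no read depth, so no counting interval is given. Of the entries, 25 carry a date in place of a gene name and were left out. Groups were read from the table's header label.

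Genes at 1 TPM or more in at least 2 of the 6 libraries were tested on log2(TPM + 1) with limma 3.58.1 (R 4.3.3; trend, 2-sided, Benjamini-Hochberg adjustment over all 12942 genes, threshold 0.05, 4 residual degrees of freedom). The karyotype interaction and the E11.5 to E12.5 contrast came from 1 fit of all 15 libraries (1 mean for each label, 9 residual degrees of freedom). Single summed values were compared by exact permutation over 20 arrangements. The fit was tested on simulated data.

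Members and gene lists were chosen with earlier results of these data known. Genes are named by this rule: the 5 markers of the comparison (Fos, Egr1, Dusp9, Meg3, Snrpn), the 12 largest called rises and falls at 5 TPM or more without overlap, up to 6 called members of each list, the 8 strongest interactions, and the 5 profiles most like Fos. Predicted genes, Y-linked genes and most bare identifiers were left out of the largest rises and falls, the interactions and the profiles like Fos. Genes outside the rule were chosen after their values had been seen. Positions come from GENCODE M21 and promoters from RefSeq (GRCm38.p6), and 89.3% of symbols were placed. The alternatives were other pseudocounts, filters, scalings and variance settings, a fit to all 15 libraries, mitochondrial transcripts left out, GC content and length regressed out, and each library left out in turn. A result for 1 member of the formative gene list is not reported here.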

Additional observations from a re-analysis of the deposited data

Results flagged for a closer look

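For the genes below, which are those named here and not every gene past the threshold, the difference between E11.5 EGC and ESC was not the same in XY as in XX libraries. The value in parentheses is (E11.5 XY EGC minus XY ESC) minus (E11.5 XX EGC minus XX ESC) on log2(TPM + 1), and each passed the limma test of the interaction, as 16.6% of all tested genes did. E11.5 XX EGC has 2 libraries, and without 1 of them, E11.5 XX EGC 1, the interaction passed for 446 genes in the positive and 252 in the negative direction, against 1298 and 850 with all libraries.

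Among immediate-early genes these were Fosb (5.03), Fos (3.95), Atf3 (3.63), Egr1 (3.25), Egr2 (2.90), Klf6 (2.27), Klf4 (2.19), Jun (2.17), Cyr61 (2.00) and Ctgf (1.89), and further Zfp36 (1.48), Rhob (1.20), Klf2 (1.18), Junb (1.14), Btg2 (1.08), Arc (1.07), Per1 (0.77), Tiparp (0.68), Srf (0.66) and Klf10 (0.60). All were positive. Other genes that rose were Dll1 (2.73), Osr2 (2.62), Ptgs2 (2.29), Enpp2 (2.07), Slc38a2 (1.39), Sertad1 (0.94) and Atg12 (0.64).

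Of the MAP kinase phosphatases, Dusp9 (-0.85) was negative, and Dusp1 (1.36), Dusp6 (0.94), Dusp4 (0.87) and Dusp16 (0.86) were positive. In the RAS, FGF and LIF pathways the genes were Eras (-0.54), Mapk3 (-0.48), Ptpn11 (0.46), Fgf15 (-0.71), Lif (0.96), Jak2 (0.85) and Stat3 (0.44).

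Imprinted genes with a positive value were Snurf (1.61), Dio3 (1.57), Sgce (1.26), Impact (1.25), Zrsr1 (0.89) and Snrpn (0.41), and those with a negative value were Phlda2 (-1.52), H13 (-0.87) and Sfmbt2 (-0.56). Pluripotency and germ cell genes were Tbx3 (0.81), Dppa5a (0.53), Prdm1 (0.95), Stag3 (0.57), Gbx2 (-0.94), Lin28a (-0.62), Rhox6 (-0.97) and Stra8 (-1.14). Of the DNA methylation machinery, Dnmt3a (-0.59), Dnmt3b (-0.84) and Mbd3 (-0.62) were negative and Zfp445 (0.60) was positive.

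In developmental signalling the genes were Id2 (1.46), Nodal (0.70), Msx1 (0.69), Jag1 (0.73), Lefty2 (-1.01), Notch4 (-0.87) and Tcf15 (-1.21). Of the p53 targets and the ATF4 response, Plk2 (2.10), Pmaip1 (1.30), Mdm2 (0.75), Fas (0.63), Cdkn1a (0.63) and Atf4 (0.59) were positive and Shmt2 (-0.53) was negative. The chaperone genes Hspb1 (-0.59), Hspe1 (-0.56) and Hspd1 (-0.44) were negative. Mitochondrially encoded genes were mt-Cytb (0.93), mt-Nd3 (0.76), mt-Nd4 (0.67) and mt-Nd1 (0.66), and of cholesterol synthesis Mvd (-0.63). Hist1h2ao and Eif4a-ps4, whose reads can be shared with near-identical copies, had values of -1.64 and -2.18.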

How the results depend on the processing

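No paired analysis was possible because the titles carry no replicate number that groups share. Over 17 alternatives, 152 of 223 named genes kept their side of the threshold and 71 did not in at least 1. None changed direction where the main or the alternative fit passed the threshold, and direction was not followed where neither passed. With each library left out, between 946 and 1616 genes were higher and between 1083 and 1514 lower in E11.5 XY EGC, the calls among list members numbered 154 to 191, and the karyotype interaction was positive for 446 to 1919 and negative for 252 to 1003 genes. Between E11.5 and E12.5 XY EGC, 2593 genes were higher after median-ratio and 2491 after quantile scaling, against 1587 in TPM as deposited, and the cause was not tested. The fibroblast markers differed by -2.73 in summed TPM and by 0.529 in mean log2(TPM + 1), since a sum rests on the most abundant markers. With 3 libraries a group, precision is limited by their number, and depth is unknown.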
